A study of Mus musculus with 2 samples.

Results

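The cytochrome P450, glutathione transferase and sulfotransferase genes were followed in ureters of E16.5 mouse embryos with and without Pparg, the gene of a ligand-dependent transcription factor. Genes were taken by their name in the array annotation, namely Cyp families 1 to 4, the alpha, kappa, mu, pi, theta and zeta classes of Gst, and all Sult genes. This rule uses names and no measured value. It gave 114 genes, read by 156 of the 39429 probes of the array, out of 29982 genes in all. Of the 114 genes, 78 encode cytochrome P450 enzymes, 18 glutathione transferases and 18 sulfotransferases.

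Cytochrome P450 enzymes are haem proteins that insert oxygen into steroids, fatty acids, retinoids, drugs and pollutants. Glutathione transferases couple reactive compounds to glutathione, sulfotransferases add a sulfate group to phenols, steroids and amines, and the conjugates leave the cell through export pumps. Liver and proximal tubule are known for high levels of many of these enzymes, and the urothelium, which faces the urine, carries several of them.

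Each of 2 dual-colour arrays set RNA of pooled control ureters, with the genotype label Pparg(fl/?), against RNA of pooled Pparg-cKO ureters, labelled Pax2-cre/+; Pparg(fl/fl). All animals were NMRI and carried a floxed Pparg allele by their labels. Array 1 had female and array 2 male pools, with the dyes swapped. The cre line is active in the nephric duct, the epithelium of the ureter and the collecting ducts, and whole ureters were extracted, so that fewer cells of a type and less RNA per cell cannot be told apart. The stage label of the mutant channel reads E14.5, whereas the titles read E16.5.

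The genotype behind each dye is not settled. RNA A stands for the RNA in red (AlexaFluor647) on array 1 and in green (AlexaFluor555) on array 2, and RNA B for its partner. RNA A was the control by the labels. The signed fold changes deposited by the authors ran with RNA A over RNA B (Pearson r 0.997 across 14585 genes on either array, genes not being independent replicates), and if these are mutant over control, RNA A was Pparg-cKO. The study's text, which has uroplakins and Krt20 decreased in the mutant, gives the same direction and opposes the labels. All log2 ratios below put RNA A over RNA B, and signals are given as RNA A against RNA B. Sex and dye were swapped together and cannot be told apart.

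No spot was saturated, and on either array at least 80.3% of green and 70.4% of red spots were well above background. Pparg itself was read by 1 probe, at 11295 against 7430 on array 1 and 12888 against 7872 on array 2. Whether this probe lies in the deleted exons was not analysed here, so it checks no label. With 2 arrays the smallest two-sided p of an exact sign-flip test is 0.5. The limma p-values below rest on the spread between arrays, largely pooled over all genes tested. That pooling carried 7.59 degrees of freedom, against 1 from the gene itself. These p-values cover no variation beyond these pools. Probe positions are those of the array files (mm9) and were not assigned to exons.

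The sequences of several probes bear on what they measure. Cyp4f18, whose product inactivates leukotriene B4, lies under 3 overlapping probes on chromosome 8, designed on AF233647, on NM_024444, and without a gene name in the files. Their common stretch at chr8:74512401-74512430 (mm9, minus strand) is shown 5′ to 3′, with position 23 in capitals. Positions count from the first base of the stretch, and the change from the NM_024444 probe to the AF233647 probe is C23A.
AF233647 probe: ccatccacccacctgtgcctttAcaggaat
NM_024444 probe: ccatccacccacctgtgcctttCcaggaat
unnamed probe: ccatccacccacctgtgcctttCcaggaat

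Cyp2u1, a P450 that hydroxylates long-chain fatty acids, was represented by a probe for ENSMUST00000200236 at chr3:130996343-130996402 (mm9, minus strand). This probe holds a repeat of 32 bases, of which 30, at chr3:130996360-130996389, are printed in capitals.
Cyp2u1 probe: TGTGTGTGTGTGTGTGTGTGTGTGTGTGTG
It shared a run of at least 20 bases with 81 probes of other names, 56 of them on the same strand, and the longest run had 35 bases. Its signals, 18883 against 19016 on array 1 and 16164 against 22300 on array 2, did not separate the RNAs on array 1. The probe for ENSMUST00000198606 read between 19.0 and 22.3, and the probe for the RefSeq transcript NM_027816 read between 5.32 and 6.57, not well above background. The bright signal can therefore not be assigned to Cyp2u1. In all, 17 probes of 14 of the enzyme genes shared at least 20 bases with a probe of another name. Among them were those of Cyp4a10 and Cyp4a31, of Cyp2c67 and Cyp2c68, and of Sult2a1, Sult2a2 and Sult2a4. Whether such probes read each other's transcripts was not tested, so they may not be separate readings.

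Where several probes read a gene, the brightest by mean log2 signal was taken, and the gene was tested if that probe was well above background in the same RNA on both arrays. This held for 66 of the 114 genes, beside 71.5% of all genes. Glutathione transferases were measured almost completely, 17 of 18, the exception being Gstt4. Of the sulfotransferases 9 of 18 were tested, and of the P450 genes 40 of 78, namely 1 of 3 in Cyp1, 25 of 45 in Cyp2, 2 of 8 in Cyp3 and 12 of 22 in Cyp4. The 48 genes not tested had signals of at most 10.1, and 29 of them were well above background in no sample. Cyp1a1 and Cyp1a2, the classical targets of the aryl hydrocarbon receptor, were not tested, with signals between 0.849 and 2.13. Among the 66 genes, 33 reached a signal of 100 in all 4 samples and 31 in none.

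**Figure D1:**
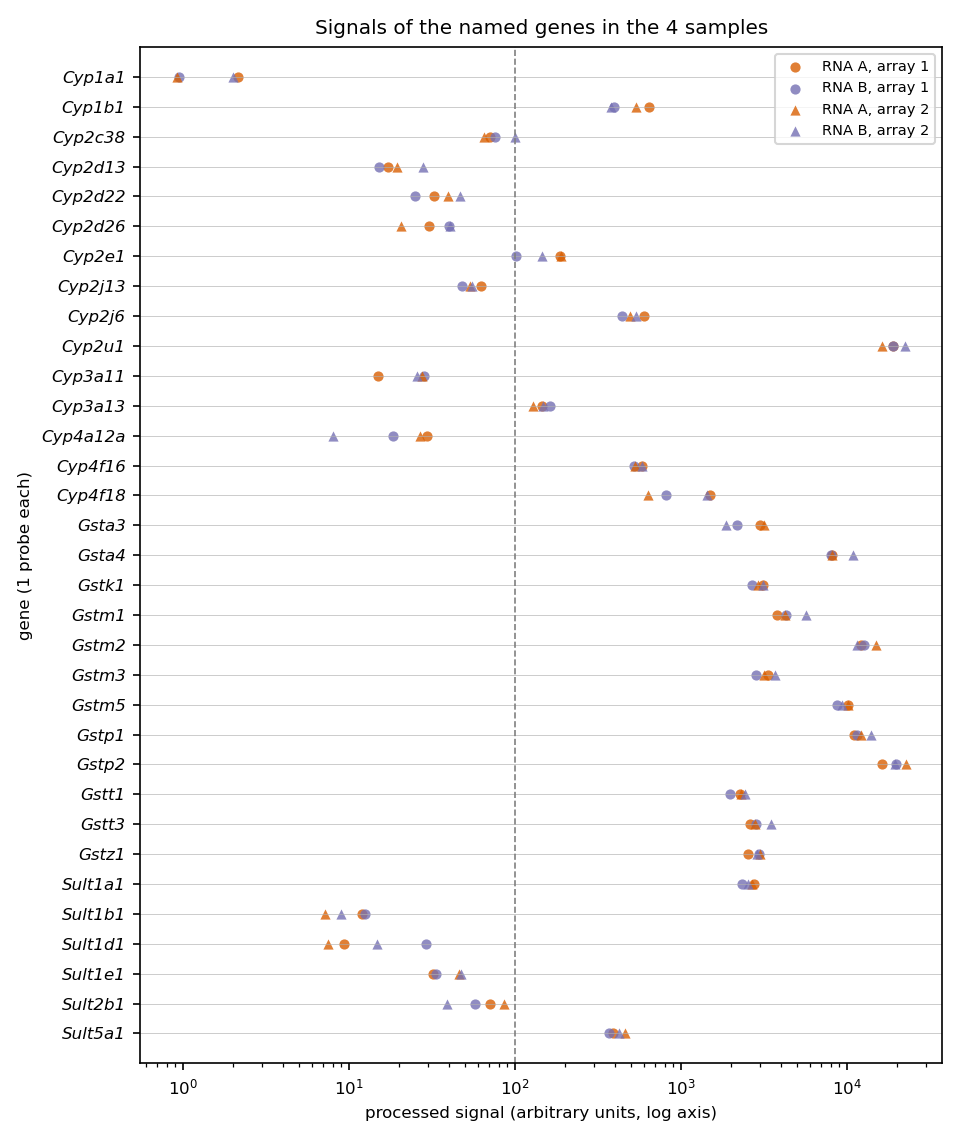
Processed signals (log axis) of the 33 genes named by the rule, 1 probe per gene, in RNA A (orange) and RNA B (violet) on array 1 (circles) and array 2 (triangles), with the threshold of 100 dashed. The 4 samples spread over more than 2-fold for Cyp1a1, Cyp4a12a, Cyp4f18, Sult1d1 and Sult2b1 and lie closer together for the other genes.

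The comparison asked which of these enzymes change in level when Pparg is lost from the ureteric epithelium. After the study's methods, a filter took genes with a ratio of 1.5-fold or more the same way on both arrays and a brighter signal of 100 or more each time. It kept none of the 114 genes, 0 for RNA A (beside 0.157% of all genes) and 0 for RNA B (beside 0.23%). Cyp4f18 alone reached both limits in opposite directions, beside 0.43% of all genes. In limma, adjusted over 21429 genes, 0 of the 66 genes were called, beside 0.126% of all genes for RNA A and 0.187% for RNA B. At an unadjusted limma p under 0.05, 6 genes favoured RNA A and 2 favoured RNA B, beside 1.68% and 2.1% of all genes. Together these 8 are 12.1% of the 66, beside 3.78%.

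The ratios of the enzymes centred on 0, with a median log2 ratio of 0.0065 beside 0.0067 over all genes tested. The medians of the separate arrays were 0.15 and -0.075, beside -0.00038 and 0.025. The SD of the mean log2 ratios was 0.33 over the enzymes and 0.23 over all genes. Among genes at 100 or more on both arrays these SDs were 0.23 and 0.20, and among dimmer genes 0.41 and 0.31. Of the 66 genes, 55 had a mean log2 ratio within 0.3 of 0. The share of all genes in that band was not computed, so this count cannot be set beside it.

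By direction alone, 19 genes favoured RNA A both times and 16 favoured RNA B both times, 28.8% and 24.2% of those tested, beside 21.6% and 17.4% of all genes. Another 22 followed the red dye and 9 the green dye, 33.3% and 13.6%, beside 28.4% and 32.6%. The 22 were 16 of the 40 P450 genes tested, 6 of the 17 glutathione transferases and 0 of the 9 sulfotransferases. These 31 genes changed sign with dye and sex.

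**Figure D2:**
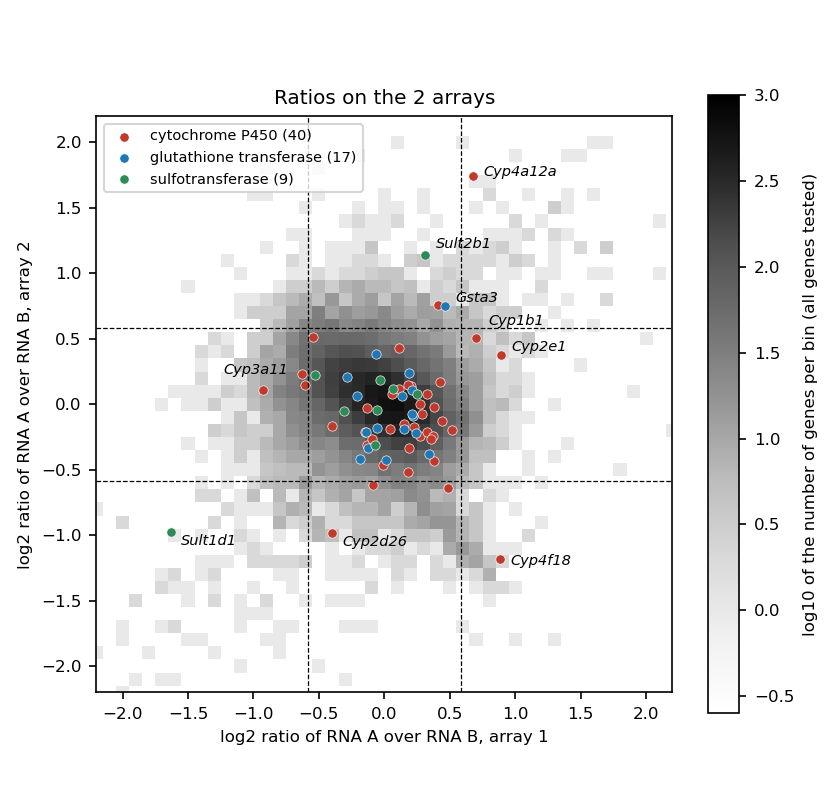
Log2 ratio of RNA A over RNA B on array 1 (x axis) and array 2 (y axis), with the 66 enzyme genes coloured by family, all 21429 genes tested counted in grey bins of 0.1, and 1.5-fold dashed. Cyp4a12a and Sult1d1 lie past 1.5-fold one way each time, at signals under 100, and Cyp4f18 lies past it in opposite directions.

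The mean of the arrays passed 1.5-fold for 5 genes in favour of RNA A (beside 1.05% of all genes) and for 2 in favour of RNA B (beside 1.47%). The 5 were Cyp4a12a, Sult2b1, Cyp2e1, Gsta3 and Cyp1b1, and the 2 were Sult1d1 and Cyp2d26. With Cyp4a12b they make up the 8 genes under an unadjusted p of 0.05. Only Gsta3, Cyp1b1 and Cyp2e1 were at 100 or more on both arrays, 3 of 33 such enzymes beside 0.44% of such genes for a mean past 1.5-fold toward RNA A. Under that unadjusted p fell 5 of 33 dim enzymes (15.2%, beside 7.72% of dim genes) and 3 of 33 brighter ones (9.09%, beside 2.09%).

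Among the P450 genes, Cyp1b1 encodes an enzyme that oxidises oestradiol, retinoids and polycyclic aromatic hydrocarbons. Array 1 read 642 against 396 and array 2 read 537 against 378. Both values of RNA A exceeded both of RNA B. The log2 ratios of 0.70 and 0.51 averaged 0.60 ± 0.14 (SD, n = 2), with a limma adjusted p of 0.778. The probe lies at chr17:80106547-80106606.

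Cyp2e1, which oxidises ethanol and is abundant in liver, read 187 against 101 on array 1 and 188 against 145 on array 2 (probe chr7:147960628-147960687). RNA A was nearly level between the arrays and above both values of RNA B. The log2 ratios of 0.89 and 0.38 averaged 0.63 ± 0.36 (SD, n = 2), with a limma adjusted p of 0.832, and another probe of the gene gave 1.497 and 0.32. All 10 hepatocyte markers were tested and 0 were called by limma (3 at an unadjusted p under 0.05, toward RNA B), with medians of 0.012 for array 1 and -1.10 for array 2. Ttr, among these 3, is also listed in the study's text with genes of superficial cells. The summed signals of the 10 markers were 14021 against 12943 on array 1 and 5776 against 11836 on array 2, so that RNA A of array 2 stood apart from the other 3 samples. Their part in the ratio of Cyp2e1 was not tested.

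Within Cyp2, the 25 genes tested averaged between -0.69 and 0.63, with a median log2 ratio of 0.014. By direction, 6 followed RNA A, 6 RNA B, 10 the red dye and 3 the green dye. The lowest was Cyp2d26, of the Cyp2d cluster on chromosome 15. It read 30.2 against 39.8 on array 1 and 20.4 against 40.4 on array 2, with both values of RNA B on top. Its ratios averaged -0.69 ± 0.41 (SD, n = 2), with a limma adjusted p of 0.710, and the mean was -0.41 with normexp and loess. Of its neighbours, named after their values were seen, Cyp2d11, Cyp2d12, Cyp2d22 and Cyp2d40 averaged between 0.014 and 0.069 and Cyp2d13 -0.17.

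Cyp2c38, an arachidonic acid epoxygenase, read 71.1 against 75.7 on array 1 and 65.5 against 100.3 on array 2. The difference lay on array 2, and the ratios averaged -0.35 ± 0.37 (SD, n = 2). Cyp2j6, of the Cyp2j cluster on chromosome 4, read 595 against 439 on array 1 and 494 against 540 on array 2. Its RNAs overlapped and the red dye was brighter both times. The 2 probes of Cyp2j13 that were measured disagreed in direction, with mean log2 ratios of 0.18 and -0.11.

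In the Cyp3 family, whose members are the main drug oxidases of the liver, 6 of 8 genes were not tested. Cyp3a13 read 146 against 162 on array 1 and 128 against 147 on array 2. Both values of RNA B exceeded both of RNA A by a small margin, and the log2 ratios averaged -0.18 ± 0.042 (SD, n = 2). Cyp3a11 read 14.9 against 28.3 on array 1 and 27.7 against 25.6 on array 2. A single sample, RNA A of array 1, stood below the rest, and another probe averaged 0.28 where this one averaged -0.41.

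The Cyp4 enzymes hydroxylate the end of fatty acid chains, and several Cyp4a genes of the liver are textbook targets of PPARA, a relative of PPARG. Of the 12 genes tested, 5 followed RNA A, 1 RNA B and 6 the red dye. Cyp4a12a, an arachidonic acid hydroxylase of the kidney that responds to androgens, was among the dim genes (probe chr4:115005258-115005317). It read 29.6 against 18.4 on array 1 and 26.8 against 7.98 on array 2. The lowest value, RNA B of the male array, was not well above background. The log2 ratios of 0.68 and 1.75 averaged 1.21 ± 0.75 (SD, n = 2), with a limma adjusted p of 0.220, where the second ratio is against that unmeasured value. With normexp and loess the mean was 0.51. Cyp4a12b, its near copy, named after its values were seen, read 27.7 against 20.8 and 26.1 against 15.5, and averaged 0.58 ± 0.24 (SD, n = 2) with a limma adjusted p of 0.902. Cyp4a10 and Cyp4a31, named in the same way, averaged -0.18 and -0.072, and Cyp4a14 was not tested, with signals between 5.402 and 8.79.

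Cyp4f18 was the gene past 1.5-fold on both arrays at 100 or more. Its AF233647 probe read 1493 against 808 on array 1 and 631 against 1429 on array 2. The red dye was thus brighter both times, with log2 ratios of 0.89 and -1.18. Only 1 of its 4 spots remained on each array once flagged spots were removed, and no other gene of the 66 rested on 1 spot. The NM_024444 probe, with 4 spots on each array, gave 0.61 and -0.83, and the unnamed probe, also with 4, gave 0.14 and -0.23. All 3 overlapping probes followed the red dye, by different amounts. Cyp4f16 read 580 against 523 and 526 against 584, and averaged -0.0012 ± 0.21 (SD, n = 2).

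**Figure D3:**
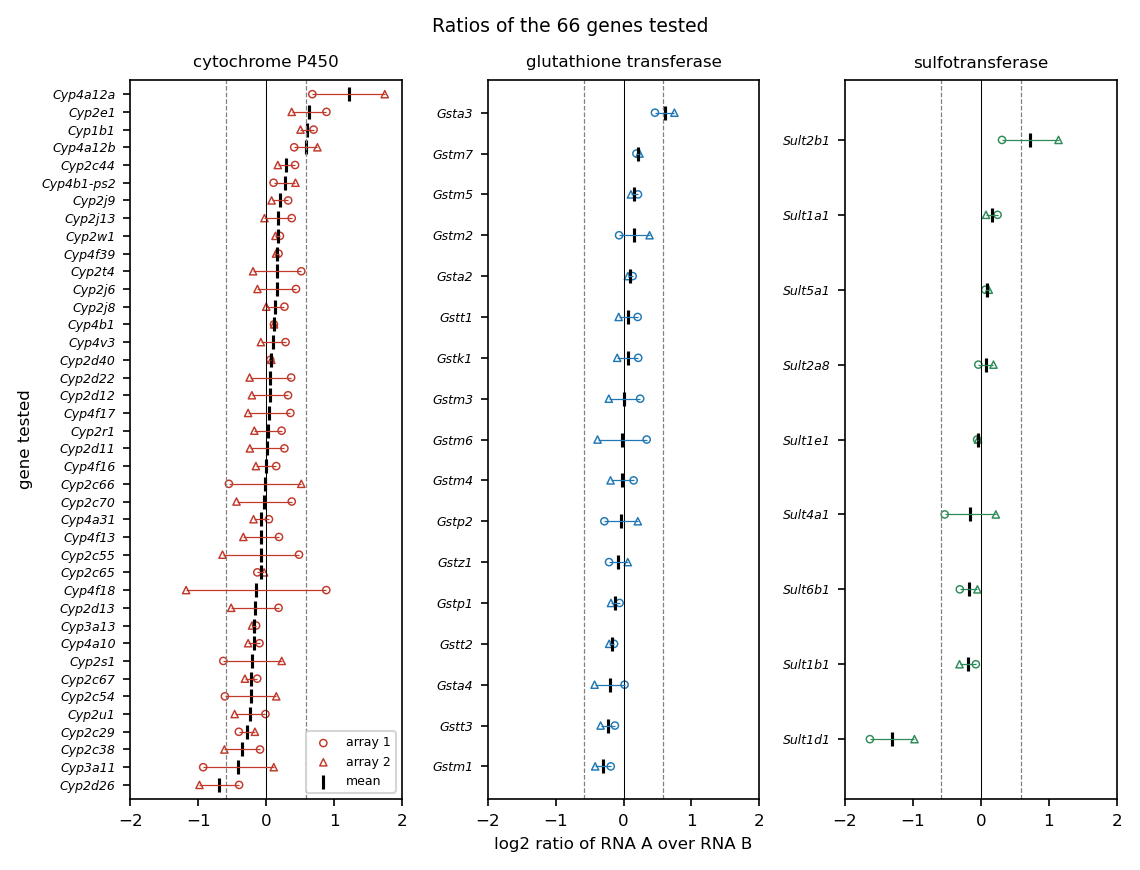
Log2 ratio of RNA A over RNA B on array 1 (circles) and array 2 (triangles) for the 66 genes tested, ordered within each family by the mean (black bars), with 1.5-fold dashed. For 22 genes the circle lies right of 0 and the triangle left of it, the pattern of the red dye, and the reverse holds for 9.

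The glutathione transferases averaged between -0.30 and 0.61, with a median log2 ratio of -0.020, and 4 followed RNA A, 4 RNA B, 6 the red dye and 3 the green dye. Gsta3, an alpha-class enzyme known in mice for detoxifying aflatoxin, stood apart and is read by 2 probes. Of the brighter one, 30 bases at chr1:21255058-21255087 (mm9, plus strand) are given to identify it.
Gsta3 probe: agtacatagcccccacaaagccaaccttct
It read 3003 against 2178 on array 1 and 3160 against 1880 on array 2. Both values of RNA A exceeded both of RNA B. The log2 ratios of 0.46 and 0.75 averaged 0.61 ± 0.20 (SD, n = 2), with a limma adjusted p of 0.798, and the other probe gave 0.41 and 0.84. Of the other alpha-class genes, Gsta2, named after its values were seen, averaged 0.10 ± 0.050 (SD, n = 2). Gsta4, which detoxifies hydroxynonenal, read 8139 against 8050 and 8148 against 10946, with RNA B of array 2 above the other samples.

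The mu-class genes, which lie side by side on chromosome 3, did not share a direction, with means between -0.30 and 0.21. Gstm1 had the lowest ratio of the glutathione transferases. It read 3792 against 4318 on array 1 and 4264 against 5693 on array 2. Both values of RNA B exceeded both of RNA A, and the log2 ratios averaged -0.30 ± 0.16 (SD, n = 2), with a limma adjusted p of 1.00. A probe of the same name that the files place on chromosome 5 averaged -0.25. Gstm2 read 12090 against 12646 and 15049 against 11535, so that its RNAs overlapped. Gstm5 read 10096 against 8708 and 10119 against 9380, with both values of RNA A on top by a mean of 0.16 ± 0.074 (SD, n = 2). The brighter probe of Gstm3 averaged 0.014 and a dim one -0.61.

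The other classes stayed within 0.3 of 0. Gstp1, the main pi-class enzyme of many epithelia, read 10984 against 11434 on array 1 and 12220 against 13888 on array 2, and averaged -0.12 ± 0.090 (SD, n = 2). Gstp2 read 16336 against 19861 and 22567 against 19502 and followed the green dye. Gstk1, Gstt1 and Gstz1 averaged 0.062 ± 0.22, 0.069 ± 0.20 and -0.075 ± 0.19 (SD, n = 2), each with the sign changing between arrays. Gstt3 was brighter in RNA B both times, at 2608 against 2848 and 2778 against 3509, and averaged -0.23 ± 0.15 (SD, n = 2).

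The 9 sulfotransferases tested had a median log2 ratio of -0.048, with 3 following RNA A, 4 RNA B and 2 the green dye. The lowest ratio was that of Sult1d1, an enzyme that sulfates catecholamines. A stretch of its brighter probe at chr5:87985023-87985052 (mm9, minus strand) identifies the reading.
Sult1d1 probe: tcagttcactgtagcccagtatgagaaatt
It read 9.33 against 28.9 on array 1 and 7.46 against 14.7 on array 2. Both values of RNA B exceeded both of RNA A, at low signals. The log2 ratios of -1.63 and -0.98 averaged -1.31 ± 0.46 (SD, n = 2), with a limma adjusted p of 0.0861, the lowest of the 66 genes. With normexp and loess the mean was -0.53. With genes read as the mean of their measured probes the limma adjusted p was 0.0406 at the same ratio, and across the alternatives it ranged from there to 1.00. The other probe, not well above background, gave -1.503 and -1.20.

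Of 12 nephron markers 8 were tested and 1 was called by limma. By direction alone 5 of the 8 were brighter in RNA B both times and 0 in RNA A, with a median log2 ratio of -0.40, while Six2, Cited1 and Aqp1 changed sign between the arrays. The marker called was Slc34a1, the phosphate carrier of the proximal tubule, which read 6.20 against 30.8 on array 1 and 4.20 against 37.2 on array 2, with a limma adjusted p of 0.0122 and with RNA A of array 1 not well above background. The summed signal of the list was 5894 to 5912 for RNA A against 6221 to 6771 for RNA B. Most of this sum came from Six2, Cited1 and Aqp1, which read 1107, 1928 and 2508 in RNA A of array 1. Nphs1, Slc12a1, Slc12a3 and Umod were not well above background. The part of nephron cells in the ratios of Sult1d1 and Cyp2d26 was not tested.

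Sult2b1, which sulfates cholesterol and pregnenolone, read 70.9 against 57.1 on array 1 and 86.1 against 39.0 on array 2. Both values of RNA A exceeded both of RNA B, and the log2 ratios averaged 0.73 ± 0.59 (SD, n = 2), with a limma adjusted p of 0.793. Sult1a1, the phenol sulfotransferase, read 2761 against 2328 and 2670 against 2532, and averaged 0.16 ± 0.12 (SD, n = 2). Sult5a1 read 388 against 371 and 459 against 424, and averaged 0.091 ± 0.036 (SD, n = 2). The oestrogen sulfotransferase Sult1e1 read 32.2 against 33.4 on array 1 and 46.0 against 47.4 on array 2. Its values separated by array and not by RNA. The last 3 genes tested beside Sult1b1, named after their values were seen, were Sult2a8 at 0.074, Sult4a1 at -0.16 and Sult6b1 at -0.18.

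Promoters were searched on both strands for 3 motifs, from 250 bases before to 50 after each RefSeq gene start (GRCm38.p6). A promoter was at hand for 90 of the 114 genes and for 27025 genes in all. The PPAR response element AGGTCANAGGTCA was found in 0 of the 90 and in 13 of the 27025 genes (0.0481%). An exact motif this rare cannot tell the 90 from other genes. Looser matches and sites farther from the start were not searched. The core of the xenobiotic response element, GCGTG, was found in 19 of the 90 and in 35.2% of all genes, and the antioxidant response element, TGACNNNGC, in 9 of the 90 and in 13.99% of all genes. Of the enzymes at 100 or more with a mean past 1.5-fold, Cyp1b1 and Gsta3 held 1 match each before the start, and Cyp2e1 held none. Both promoters follow, at chr17:79715062-79715311 (minus strand) and chr1:21240335-21240584 (plus strand), with the match in capitals.
Cyp1b1, GCGTG on the opposite strand: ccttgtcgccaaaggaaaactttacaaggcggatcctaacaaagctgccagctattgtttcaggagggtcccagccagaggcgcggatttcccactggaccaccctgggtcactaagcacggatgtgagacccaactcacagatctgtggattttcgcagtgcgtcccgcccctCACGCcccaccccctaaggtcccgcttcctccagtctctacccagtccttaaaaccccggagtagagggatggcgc
Gsta3, TGACNNNGC: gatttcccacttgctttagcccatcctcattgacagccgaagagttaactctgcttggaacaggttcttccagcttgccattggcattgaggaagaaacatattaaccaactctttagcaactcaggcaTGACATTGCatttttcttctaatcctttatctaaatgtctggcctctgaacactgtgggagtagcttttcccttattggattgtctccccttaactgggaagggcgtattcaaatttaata

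The mean log2 signal of both RNAs on array 1 was then set against array 2, after centring. Sex, pool and array cannot be told apart here, and no test was made. Of the 66 genes, 4 were at least 1.5-fold higher on array 1 (beside 2.7% of all genes) and 0 on array 2 (beside 0.77%, and 3.47% either way). They were Cyp4a12a with a log2 difference of 0.75, Sult1d1 with 0.73, Sult1b1, which sulfates thyroid hormones, with 0.68, and the pseudogene Cyp4b1-ps2 with 0.61, of which the first 3 had signals under 30. RNA B of array 2 was not well above background for Cyp4a12a and Sult1b1, so that their differences are against an unmeasured value. The lowest differences were those of Cyp2d22 at -0.51, Cyp2d13 at -0.44 and Sult1e1 at -0.43. For 10 genes both RNAs of array 1 were above both of array 2 and for 7 below, beside 15.8% and 12.4% of all genes. Of the hepatocyte markers, 8 of 10 were past 1.5-fold toward array 1, where RNA A of array 2 alone had the low sum given above, and their part in these differences was not tested.

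**Figure D4:**
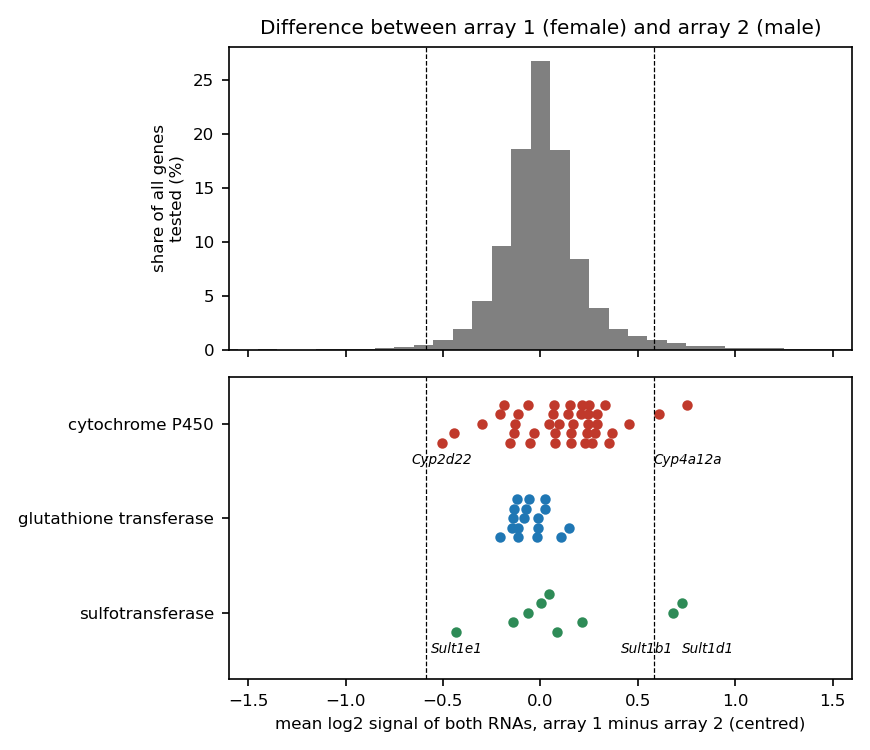
Mean log2 signal of both RNAs on array 1 (female pools) minus array 2 (male pools), centred on the median of all genes tested, as the share of all genes tested per bin of 0.1 (grey bars) and for each of the 66 enzyme genes by family (points), with 1.5-fold dashed. The 4 genes past 1.5-fold are P450 genes or sulfotransferases higher on array 1.

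Other genes of drug and glutathione metabolism were read from 8 lists of 68 genes, of which 66 were on the array and 62 were tested. Of these, 0 passed the filter and 0 were called by limma. At an unadjusted limma p under 0.05 there were 2 for RNA A and 4 for RNA B, beside 1.68% and 2.1% of all genes. The mean of the arrays passed 1.5-fold for 1 toward RNA A and 4 toward RNA B, beside 1.05% and 1.47% of all genes. Their median log2 ratio was -0.0017. The genes named from here on were chosen after their values were seen. Of 7 other glutathione transferases 4 followed RNA B, with a median of -0.16, and Mgst2, which makes leukotriene C4, read 60.5 against 86.2 on array 1 and 60.5 against 96.5 on array 2. Of 13 genes of glutathione synthesis and recycling, all but Ggt1 and Slc7a11 averaged within 0.3 of 0. Ggt1, which cleaves glutathione and its conjugates in the proximal tubule, was not well above background in RNA A on either array, and read 6.75 and 9.40 in RNA B. The cystine carrier gene Slc7a11 read 10.5 against 4.85 on array 1 and 6.03 against 4.65 on array 2, with the last value not well above background. Of the NRF2 system, Nqo1 averaged 0.15, Hmox1 0.27 and Nfe2l2 -0.38, and Osgin1 read 100.2 against 242 on array 1 and 155 against 180 on array 2.

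The aryl hydrocarbon receptor gene Ahr and its partner Arnt averaged -0.046 and -0.022, and Tiparp, like Cyp1b1 a target of the receptor, 0.091. The xenobiotic receptor gene Nr1i2 was not well above background. The P450 partners averaged between -0.16 and 0.11, with Por, the reductase that feeds electrons to microsomal P450 enzymes, at -0.16 ± 0.53 (SD, n = 2). The sulfate supply averaged between -0.19 and 0.25, with Papss1 and Papss2, which make the sulfate donor, at 0.25 and 0.15. Ugt2b34, a glucuronosyltransferase, read 661 against 492 on array 1 and 516 against 328 on array 2, and averaged 0.54 ± 0.16 (SD, n = 2). The export pump gene Abcc3 read 588 against 1321 on array 1 and 1073 against 1224 on array 2, so that RNA A of array 1 stood lowest.

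**Figure D5:**
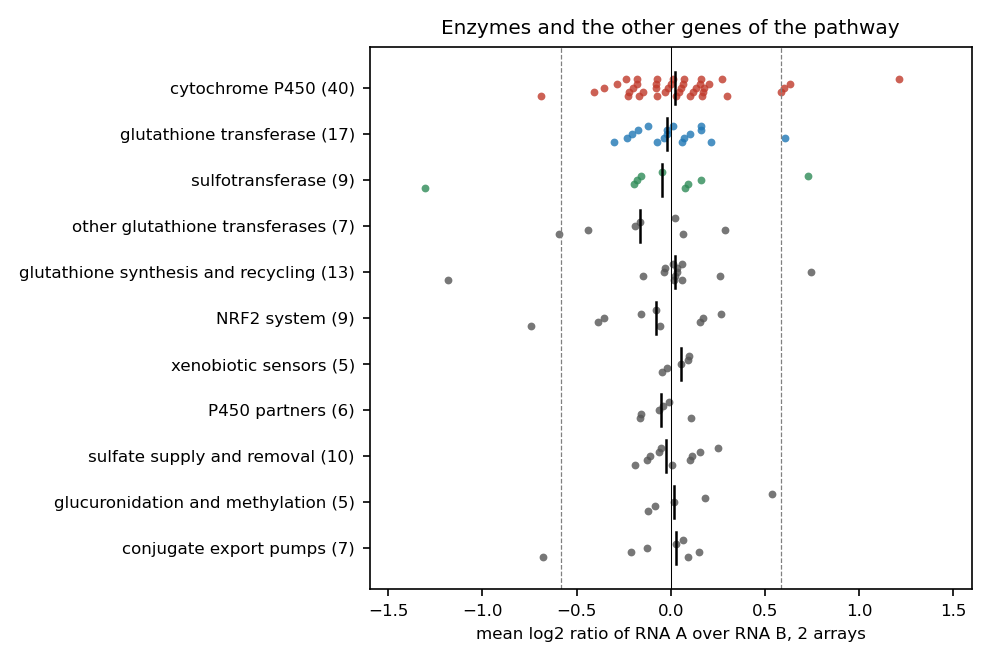
Mean log2 ratio of RNA A over RNA B for the 66 enzyme genes by family (coloured) and for 62 other pathway genes by list (grey), with the number of genes in brackets, medians as black bars and 1.5-fold dashed. The medians lie between -0.16 and 0.054, and few genes of any list pass 1.5-fold.

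Markers of the cell types of the ureter were measured on the same arrays. All 6 markers of superficial urothelium followed RNA B, with a median log2 ratio of -1.01 and summed signals of 49171 to 50739 for RNA A against 82481 to 86415 for RNA B. Of these, 4 passed the filter, and 2, Upk1a and Upk3b, were called by limma (adjusted p 0.0451 and 0.0201). Of 8 genes of ureteric mesenchyme and smooth muscle 6 followed RNA B, with a median of -0.57. Of 4 basal urothelium genes 3 followed RNA A, with a median of 0.44 and sums of 4492 to 4797 against 3812 to 3885. All 6 macrophage markers followed RNA A, with a median of 0.16 and sums of 8142 to 8339 against 7205 to 7561. Of 6 mast cell markers 4 were tested and 3 followed RNA A, with a median of 0.59 and sums of 1554 to 1757 against 1096 to 1126, while Mcpt4 and Ms4a2 were not well above background. Cpa3 and Cma1 passed the filter for RNA A, and Cpa3 was called by limma (adjusted p 0.0465). Kit and Tpsb2 averaged 0.094 and 0.013. Steroidogenic, endothelial, red blood cell and collecting duct lists had medians of -0.36, 0.081, 0.034 and 0.11, and that of general epithelial genes was -0.23. In these lists only Fxyd4, of the collecting duct, passed the filter, for RNA A. The part of all these cell types in the ratios of Gsta3, Cyp1b1, Cyp2e1, Cyp4a12a and Sult2b1 was not tested.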

How the data were processed

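Control and Pparg-cKO pools were set against each other on 2 dual-colour arrays of 1 slide, read in 1 scan, and grouped by the labels. The authors' processed intensities were produced, per the file headers, with Feature Extraction 10.7.3.1, which subtracted background, put surrogates in place of signals near it (7.98% of green against 15.2% of red spots for array 1) and balanced the dyes by a linear step and LOWESS, so that ratios of dim probes depend on these steps. The deposited log10 ratio served to check the dyes. The signed fold changes in the authors' own listing, a score per probe whose median was 1 and whose direction is not given, served as an alternative.

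Control spots and flagged spots (5705 and 5579) were left out, and log2 signals averaged over the spots of each probe. Of the 66 genes tested, 49 kept all 4 spots on both arrays. The median SD of the log2 ratio was 0.068 and 0.077 over spots and 0.23 between arrays. Well above background means at least 0.5 of the spots kept. RefSeq (GRCm38.p6) named 150 of 156 enzyme probes, 1 of them otherwise (Cyp2c44). Tests used limma 3.58.1 (intercept, eBayes, R 4.3.3) on 21429 genes, with Benjamini-Hochberg adjustment at 0.05, and were tested on simulated data. Each array pairs both RNAs. Other software was the data.table package (1.17.8), pandas 2.3.3 and matplotlib 3.10.9.

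Genes, lists and tests were chosen with earlier results of these data known. By rule the text names Pparg, genes past the filter or past it in opposite directions, the 5 highest and 5 lowest ratios, the 2 brightest probes of each class, the 3 largest and 3 smallest differences between arrays, and genes whose probes disagree. Alternatives were normexp (offset 50) with loess, loess alone, median centring, the authors' fold changes, keeping flagged spots, probe means, other thresholds of signal and fold, testing all genes, a variance trend, single channels, and leaving out each array.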

Additional observations from a re-analysis of the deposited data

Results flagged for a closer look

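The probe of Cyp4f18 for AF233647 stood out because RNA A was brighter on the female array and RNA B on the male array. The log2 ratio of RNA A over RNA B was 0.885 on array 1 and -1.18 on array 2. The difference was not tested, since each array is 1 pair of pools, and the red channel was the brighter one both times. The ratio on each array rested on 1 spot. The NM_024444 probe, which overlaps it, gave 0.61 and -0.83 from 4 spots on each array.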

How the results depend on the processing

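Of the 32 named genes run under the scalings and probe rules (Cyp1a1, not tested, was not), 31 kept the direction of their mean ratio. The exception was Gstm3, which turned from 0.014 to -0.0035 with normexp and loess and to -0.30 with the mean of its probes. No limma call among the enzymes was made under 8 of the 9 alternatives. The exception was the mean of the probes well above background, with 1 call for RNA B (Sult1d1, adjusted p 0.0406). Calls over all genes moved more, from 27 for RNA A and 40 for RNA B to 1 and 0 with normexp and loess (526 genes at an unadjusted p under 0.05), 8 and 20 with loess alone, 15 and 30 with flagged spots kept, 0 and 0 with the authors' table or without a filter on dim probes (567 and 494 genes at that unadjusted p), and 39 and 55 with the mean of probes. The cause was not tested. As single channels with no replicate block, which ignores that each array pairs both RNAs, limma called 1 gene for RNA A and 0 for RNA B (713 genes at that unadjusted p), 0 of them enzymes, and the lowest adjusted p of an enzyme was 0.743. limma could not be run on 1 array, which leaves no residual degrees of freedom.

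The filter counts rested on the signal threshold and on both arrays. Without replicate 1 or 2, 1 to 3 enzymes passed for RNA A (Gsta3 on array 2, beside 1% of all genes, and Cyp1b1, Cyp2e1 and Cyp4f18 on array 1, beside 1.07%) and 1 to 2 for RNA B (Cyp2c38 and Cyp4f18 on array 2, beside 1.63%, and Cyp2s1 on array 1, beside 2.12%). With no intensity threshold 1 passed for RNA A (Cyp4a12a, beside 0.644%), 2 for RNA B (Sult1d1 and Sult3a1, beside 0.797%) and 13 of 114 in opposite directions (11.4%, beside 11%), of which 1 had been tested. With well above background in its place the counts were 1, 1 and 2, beside 0.427%, 0.494% and 1.3%. At 2-fold, 0 passed in opposite directions. Signal over background limits the 31 genes tested with no sample at 100.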
